A study of Mus musculus with 4 samples.

Results

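The 10 loci described here are Peg10, Mest, Peg3, Zrsr1, Plagl1, Snrpn, Igf2r, Gnas, Grb10 and Nnat, imprinted mouse genes whose imprint control region lies at a promoter in or beside the gene. They were taken as a fixed list of symbols and not computed from the measurements. The list was chosen with earlier results of these data known. All 10 were found among 49554 RefSeq genes on the autosomes and X of GRCm38.p6 (mm10). For each locus every peak in the gene body and 30 kb either side was taken, which gave 26 of 21600 H3K4me3 peaks, 36 of 51737 CTCF peaks and 56 of 75897 RAD21 peaks. The windows do not overlap each other, so each peak belongs to 1 locus.

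The peaks came from ChIP-exo, in which immunoprecipitated chromatin is digested by an exonuclease up to the edge of the crosslinked protein, in Bruce-4 cells, a mouse embryonic stem cell line of C57BL/6J genotype grown in serum/2i/LIF medium. The 4 libraries were 1 for H3K4me3, 2 for CTCF and 1 for RAD21, all from this 1 line with no treatment named in the labels, and 1 peak list per antibody was used here, for CTCF a union list. A list gives the position of each peak and nothing else, so height and sequencing depth are unknown, there is no replicate error, and no test was possible. It also does not separate the maternal from the paternal chromosome.

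In imprinting, a control region carries DNA methylation on the chromosome from one parent only, set in that parent's germ cells and kept after fertilisation, and the genes around it are then expressed from a single parental copy. All control regions described here are of the kind methylated on the maternal copy, and each coincides with a promoter that is active on the unmethylated paternal copy. H3K4me3 is a histone mark of active and poised promoters. CTCF binds a long DNA motif through its zinc fingers and stops cohesin as it extrudes loops, and RAD21 is the cohesin subunit that closes the ring.

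The cell label was set against marker genes first. H3K4me3 lay within 1 kb of a start of 10 of 10 embryonic stem cell markers. The widest peak ran between 739 bp at Utf1 and 2792 bp at Nanog. Of 8 listed fibroblast markers 4 have a start in the promoter table, and H3K4me3 lay within 1 kb of 1 of them, Twist1. Among protein-coding genes 59.6% carried it by the same rule.

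The question put to each locus was whether H3K4me3, CTCF and RAD21 coincide at the promoter known as the control region. At 8 loci that promoter is an annotated start, namely the starts of Peg10, Mest, Peg3, Zrsr1, Plagl1 and Nnat themselves, of Snurf for Snrpn, and of the long noncoding RNA Airn for Igf2r. Of these 8 control promoters 7 had an H3K4me3 peak within 1 kb, against 43.7% of 32580 distinct RefSeq starts, and the exception was Nnat. It lay over the start itself at 4 of the 8, against 27.7% of all starts. CTCF lay within 1 kb of 3 of the 8, at Peg10, Mest and Airn, against 17.3% of all starts. RAD21 lay within 1 kb of 4, at Peg10, Mest, Peg3 and Nnat, against 27.4% of all starts. All 3 came together at 2 of the 8, Peg10 and Mest, against 10.3% of all starts. The Mest start was chosen with earlier results of these data known, and another Mest start upstream had no H3K4me3 within 1 kb.

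Read against starts that carry H3K4me3, CTCF was at 3 of the 7 marked control promoters, against 30% of 14222 marked starts, and RAD21 at 3 of the 7, against 48.4%. Both were at 2 of the 7, against 23.6%, so the full combination was about as frequent as at other marked starts. With so few promoters a single peak moves these counts by a wide margin. Just outside the limit of 1 kb lay the CTCF peak of Peg3, at 1029 bp, and just inside it the RAD21 peak of the same gene, at 974 bp. Within 2.5 kb the count with all 3 was 4 of 8, the additions being Peg3 and Zrsr1, against 15.6% of all starts, and within 500 bp it was 1, Peg10, against 7.5%. The inner promoters of Gnas and Grb10 bring the set to 11 sites, of which 9 had H3K4me3, 4 had CTCF, 5 had RAD21 and 2 had all 3, to be read against the same shares of all starts (43.7%, 17.3%, 27.4% and 10.3%). The Grb10 site in this tally is the inner RefSeq start, which may not be the promoter at the control region itself. The inner sites were chosen with earlier results of these data known, and both Gnas sites lay inside H3K4me3 peaks. The tally of 11 sites is therefore a description and cannot show a higher share than at other starts.

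**Figure D1:**
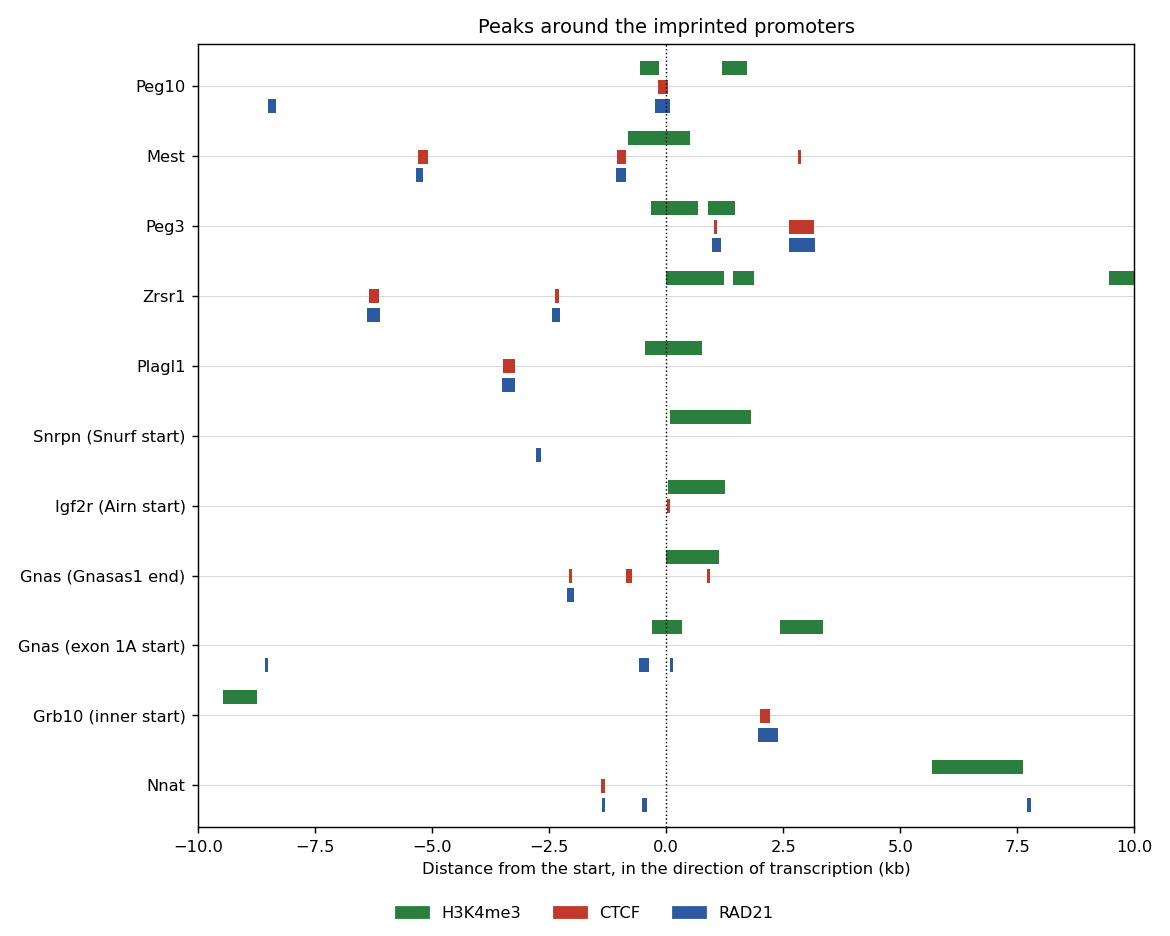
Peaks of H3K4me3 (green), CTCF (red) and RAD21 (blue) within 10 kb of 11 imprinted promoters, drawn to scale along the direction of transcription with the start at 0; the thinnest bars are widened so that they can be seen. H3K4me3 reaches to within 1 kb of 9 starts, and CTCF and RAD21 lie over the start at Peg10 only.

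Peg10 encodes a protein derived from a retrotransposon that the placenta needs. It stands head to head with Sgce, which encodes epsilon-sarcoglycan, a membrane protein of muscle and brain. The annotated ends of the pair, at 4747306 and 4747204 on chromosome 6, both lay under a CTCF peak of 214 bp (chr6:4747125-4747338) and a RAD21 peak of 328 bp (chr6:4747059-4747386). This was the single control promoter of the 8 with CTCF or RAD21 over the start itself, a position held by CTCF at 2.59% and by RAD21 at 7.1% of all RefSeq starts. An H3K4me3 peak of 409 bp (chr6:4746750-4747158) reached into both from the Sgce side. Another, of 546 bp, began at 4748492 inside Peg10. The H3K4me3 peaks thus stood on either side of the CTCF site, and the first was shorter than most, with 22.5% of all H3K4me3 peaks shorter still.

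Mest encodes a protein of the alpha/beta hydrolase fold. RefSeq gives it a pair of starts 3 bp apart at 30738050 and 30738053, at the control region, and another upstream at 30733506. The control promoter lay inside an H3K4me3 peak of 1328 bp (chr6:30737239-30738566), longer than 90.8% of the list. A CTCF peak of 190 bp (chr6:30737005-30737194) and a RAD21 peak of 212 bp (chr6:30736987-30737198) lay 856 and 852 bp upstream of the start. They ended 45 and 41 bp before the H3K4me3 peak began, so the 3 were neighbours and did not overlap. The upstream start had no H3K4me3 within 1 kb, but another CTCF peak of 208 bp lay 552 bp upstream of it and a RAD21 peak of 143 bp 653 bp upstream.

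The promoter sequence of Mest is shown because it holds the hexamer TGCCGC, which the imprint-keeping zinc finger protein ZFP57 is known to bind when methylated. The window runs from 250 bases before to 50 after the start (RefSeq, GRCm38.p6, chr6:30737800-30738099, plus strand), and capitals mark the 2 matches, both in the reverse complement GCGGCA.
Mest: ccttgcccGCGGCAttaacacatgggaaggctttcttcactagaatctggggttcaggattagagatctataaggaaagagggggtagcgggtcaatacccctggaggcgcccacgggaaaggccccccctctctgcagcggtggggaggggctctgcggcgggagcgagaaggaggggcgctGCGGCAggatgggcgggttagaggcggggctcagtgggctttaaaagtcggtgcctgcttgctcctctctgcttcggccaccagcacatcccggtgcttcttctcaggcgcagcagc
All of it lies inside the H3K4me3 peak.

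Peg3 encodes a large zinc finger protein and shares its promoter with Usp29, a gene of the ubiquitin-specific protease family that runs the other way. Both starts, at 6730419 and 6730583 on chromosome 7, lay inside an H3K4me3 peak of 1000 bp (chr7:6729738-6730737). A further H3K4me3 peak of 579 bp (chr7:6728956-6729534), inside Peg3, overlapped both a RAD21 peak of 197 bp and a CTCF peak of 38 bp. That CTCF call was among the shortest in its list, where 37 bp is the minimum. Deeper in Peg3 lay the longest CTCF and RAD21 peaks of all 10 loci, 548 bp (chr7:6727257-6727804) and 547 bp (chr7:6727251-6727797), longer than 99.6% and 98.9% of their lists. They coincided almost to the base, 1152 and 1159 bp from the nearest H3K4me3. Joining H3K4me3 peaks up to 1 kb apart gave 1 domain of 1782 bp over the shared promoter, with 1 CTCF and 1 RAD21 peak in it.

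At Zrsr1, Plagl1 and Snrpn the promoter had H3K4me3, and the nearest RAD21 lay between 2 and 4 kb upstream. The nearest CTCF was in that range at Zrsr1 and Plagl1 and far outside it at Snrpn. Zrsr1, a retrogene related to a splicing factor subunit, sits in an intron of Commd1, whose product takes part in copper handling and protein turnover. An H3K4me3 peak of 1242 bp (chr11:22972001-22973242) covered its start at 22972005, and another of 448 bp followed. The nearest CTCF peak, 85 bp long, was 2300 bp upstream and overlapped a RAD21 peak of 169 bp. The start of the host Commd1, at 22982284, had all 3 within 1 kb: H3K4me3 of 967 bp, CTCF of 125 bp 15 bp upstream of the start, and RAD21 of 154 bp over it. The other RefSeq start of Commd1, at 22972866, lay inside the same H3K4me3 peak as Zrsr1 and had CTCF and RAD21 3161 and 3134 bp away.

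Plagl1 encodes a zinc finger transcription factor that restrains growth, and the noncoding RNA Hymai starts beside it at 13090845. Its start at 13090832 on chromosome 10 lay inside an H3K4me3 peak of 1230 bp (chr10:13090372-13091601). CTCF and RAD21 peaks of 257 and 283 bp (chr10:13087339-13087595 and chr10:13087313-13087595) ended at the same base, 3237 bp upstream. A second such pair, 204 and 461 bp long, lay within the gene more than 30 kb downstream of the promoter.

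Snrpn encodes SmN, a core protein of spliceosomal particles in brain, and the reading frame Snurf lies in the same transcript. Their control promoter, the Snurf start at 60005199 on chromosome 7, had the longest H3K4me3 peak of the 8 control promoters, 1736 bp (chr7:60003388-60005123), which begins 76 bp inside the gene. It was longer than 98.3% of all H3K4me3 peaks. The nearest RAD21 peak, of 117 bp, lay 2669 bp upstream and did not overlap CTCF. The nearest CTCF peak was 219250 bp from this start, against a median of 4379 bp over the starts with H3K4me3. RefSeq gives Snrpn 3 further starts upstream, at 60047978, 60140225 and 60450177, and none had any of the 3 marks within 1 kb.

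The Snurf promoter is shown as the one with the longest H3K4me3 peak and no CTCF (RefSeq, GRCm38.p6, chr7:60005150-60005449, minus strand). Capitals mark its GCGGCA, the reverse complement of TGCCGC, which begins 2 bases before the annotated start.
Snurf: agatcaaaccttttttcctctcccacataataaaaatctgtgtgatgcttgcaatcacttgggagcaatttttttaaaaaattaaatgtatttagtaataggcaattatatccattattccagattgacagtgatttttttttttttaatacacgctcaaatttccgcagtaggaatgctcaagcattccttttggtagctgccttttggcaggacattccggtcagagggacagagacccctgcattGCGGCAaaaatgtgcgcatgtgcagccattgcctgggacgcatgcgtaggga

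Igf2r and Gnas each have a control region at the promoter of an antisense noncoding RNA. Igf2r encodes the receptor that takes up insulin-like growth factor 2 and mannose 6-phosphate proteins, and Airn, transcribed across it from the paternal copy, silences it in cis. The Airn start at 12741311 on chromosome 17 had an H3K4me3 peak of 1224 bp beginning 38 bp downstream (chr17:12741349-12742572). A CTCF peak of 73 bp (chr17:12741323-12741395) overlapped its edge, 12 bp downstream of the start. The nearest RAD21 peak was 30795 bp from that CTCF peak. The start of Igf2r itself, at 12769706, lay under an H3K4me3 peak of 532 bp, had another of 339 bp downstream of it, and had neither CTCF nor RAD21 within 1 kb. Both the Airn and the Igf2r promoter had H3K4me3 in these cells, on chromosomes that the lists do not tell apart. Expression was not measured, so whether Igf2r is silenced in these cells is not known from these data.

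The Airn promoter is given because it holds the edge of a CTCF peak with no RAD21 (RefSeq, GRCm38.p6, chr17:12741061-12741360, plus strand). Capitals mark the 38 bases under the CTCF peak, which runs on beyond the window.
Airn: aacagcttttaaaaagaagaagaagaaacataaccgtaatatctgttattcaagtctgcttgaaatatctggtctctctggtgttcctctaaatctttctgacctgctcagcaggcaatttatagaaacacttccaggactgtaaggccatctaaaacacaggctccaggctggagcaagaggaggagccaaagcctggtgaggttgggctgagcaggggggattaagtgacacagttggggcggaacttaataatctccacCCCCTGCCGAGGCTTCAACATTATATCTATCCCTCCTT

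Gnas encodes the stimulatory G protein alpha subunit and, from promoters further upstream, other products. Its antisense RNA Gnasas1, also called Nespas, has its upstream end at 174295436 on chromosome 2. That end lay inside an H3K4me3 peak of 1133 bp (chr2:174294311-174295443), which held a CTCF peak of 37 bp, the minimum length. Another CTCF peak, of 126 bp, lay 727 bp upstream, and the nearest RAD21 peak was 1973 bp upstream. As at Airn, CTCF was present without RAD21 within 1 kb. Of the 36 CTCF peaks in the loci 4 did not overlap RAD21, against 18.1% of all CTCF peaks, namely the one at Airn, both beside Gnasas1 and a peak of 39 bp inside Mest.

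The other promoters of Gnas differed from this one. The exon 1A start at 174327749, the second control region of the locus, lay inside an H3K4me3 peak of 627 bp (chr2:174327454-174328080) with RAD21 and no CTCF. One RAD21 peak had the minimum length of 71 bp and lay 83 bp downstream, another of 207 bp ended upstream of the H3K4me3 peak, and the nearest CTCF was 15419 bp away. The last RefSeq start, at 174330006, had H3K4me3 of 907 bp 179 bp downstream and neither CTCF nor RAD21 within 1 kb. The outermost start, at 174284320, had all 3 within 1 kb. RAD21 of 313 bp (chr2:174284015-174284327) lay over it, CTCF of 172 bp (chr2:174284119-174284290) lay 30 bp upstream, and a short H3K4me3 peak of 312 bp lay 491 bp downstream. By background knowledge this outermost promoter drives the maternally expressed Nesp transcript and is not itself a germline control region.

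That promoter is shown as the only one of the sequences here with a whole CTCF peak inside the window (RefSeq, GRCm38.p6, chr2:174284070-174284369, plus strand). Capitals mark the 172 bases under the peak.
Gnas outermost start: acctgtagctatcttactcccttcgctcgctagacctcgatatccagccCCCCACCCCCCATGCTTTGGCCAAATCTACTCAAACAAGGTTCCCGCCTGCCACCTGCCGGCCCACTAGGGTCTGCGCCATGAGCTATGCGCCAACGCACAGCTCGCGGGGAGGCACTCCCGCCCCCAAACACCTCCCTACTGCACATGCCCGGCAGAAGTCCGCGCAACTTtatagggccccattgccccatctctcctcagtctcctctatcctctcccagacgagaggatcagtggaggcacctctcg
Among the starts with a window in the promoter table, which leaves out Peg10, Sgce and Gnasas1, it was also the only one described here with a match on either strand to the CTCF core searched here (CC, any 3 bases, AG, any 2 bases, GGC), the letters GCCACCTGCCGG within the peak, on the minus strand.

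The inner start of Grb10 and the start of Nnat had no H3K4me3 within 1 kb. Grb10 encodes an adaptor that restrains insulin and growth factor signalling. It is expressed from the maternal copy in most tissues, from its outer promoter, and from the paternal copy in neurons, from promoters at the control region inside the gene. The outer start at 12037420 on chromosome 11 lay inside an H3K4me3 peak of 736 bp (chr11:12036711-12037446), the only H3K4me3 peak in the gene body. The inner RefSeq start, at 12027971, had its nearest H3K4me3 peak 8740 bp upstream. A CTCF peak of 214 bp (chr11:12025748-12025961) inside a RAD21 peak of 440 bp (chr11:12025581-12026020) lay 2010 and 1951 bp downstream of it. That RAD21 peak was longer than 96.5% of its list. The RefSeq table gives a single inner start, which may not be the promoter at the control region itself, so these values do not show that the control region lacked H3K4me3, CTCF or RAD21.

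Nnat encodes neuronatin, a small membrane protein of neurons and endocrine cells, and lies in an intron of Blcap. Its start at 157560078 on chromosome 2 was the only control promoter of the 8 without H3K4me3 within 1 kb. The nearest such peak, 1930 bp long (chr2:157565763-157567692), covered the start of Blcap, 5685 bp downstream of the Nnat start, and was longer than 99.2% of the list. RAD21 was called in a peak of 106 bp 414 bp upstream of Nnat without CTCF. A CTCF peak of 70 bp lay 1318 bp upstream with a RAD21 peak of 85 bp.

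The Nnat promoter follows for comparison with Mest and Snurf, since it has the same hexamer but no H3K4me3 (RefSeq, GRCm38.p6, chr2:157559828-157560127, plus strand). Its GCGGCA, in capitals, lies just downstream of the start.
Nnat: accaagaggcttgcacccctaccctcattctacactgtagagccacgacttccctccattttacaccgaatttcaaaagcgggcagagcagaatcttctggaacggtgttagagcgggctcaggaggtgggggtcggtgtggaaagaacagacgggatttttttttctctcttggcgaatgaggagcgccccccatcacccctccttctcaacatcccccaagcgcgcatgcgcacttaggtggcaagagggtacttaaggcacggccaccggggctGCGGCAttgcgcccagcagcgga

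**Figure D2:**
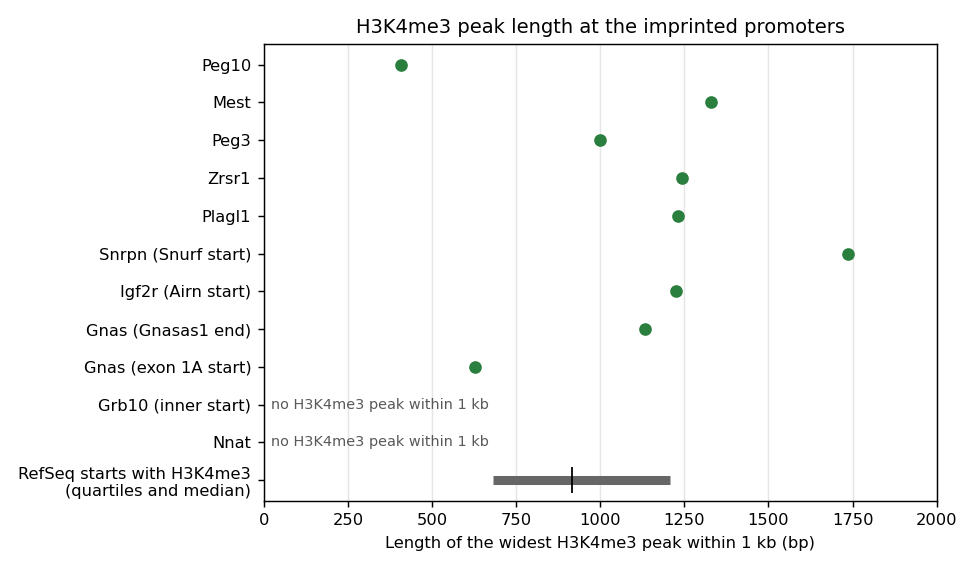
Length in bp of the widest H3K4me3 peak within 1 kb of each imprinted promoter (points), above the quartiles (bar) and median (tick) over 14222 RefSeq starts with H3K4me3. Points run between 409 bp at Peg10 and 1736 bp at the Snurf start, and Grb10 (inner start) and Nnat have none.

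Where the annotated control promoters had H3K4me3, the peaks were mostly long. Over the 7 that had one the widest peak had a median of 1230 bp, against 917 bp (quartiles 682 and 1207 bp) over all marked starts. Of the 7, 5 were above the upper quartile of all marked starts, namely Mest, Airn, Snurf, Plagl1 and Zrsr1. Peg3 lay between the median and the upper quartile, and Peg10 was below the lower quartile. Both Gnas sites, not counted here, had peaks below the upper quartile. The peak was 1133 bp at the Gnasas1 end, and 627 bp at exon 1A, below the lower quartile.

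The loci differed widely in their distance to CTCF and RAD21. The nearest CTCF peak lay at a median of 1173.5 bp over the 8 control promoters and the nearest RAD21 peak at 1623.5 bp. Without the shortest peaks of each list the median for CTCF was 1809 bp. Over all RefSeq starts the medians were 9192 bp for CTCF and 4901.5 bp for RAD21, and over the marked starts they were 4379 and 1135 bp, so for RAD21 the control promoters lay nearer than all starts and farther than marked ones. Within 5 kb CTCF was found at 7 of the 8 control promoters, against 37.5% of all starts (52.7% of marked starts), with Snurf as the exception. RAD21 was within 5 kb of 7 of the 8, against 50.4% of all starts (70.1% of marked starts), with Airn as the exception. The 8 include Nnat, which is not a marked start. Over the 11 sites with the inner promoters the counts were 9 for CTCF and 10 for RAD21. The Gnas exon 1A start, 15419 bp from CTCF, was the further exception. Zrsr1, Plagl1, Mest, Nnat and Snurf had their nearest CTCF peak upstream of the start, Peg10 over it, and Airn and Peg3 downstream, at Peg3 on the upstream side of Usp29.

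**Figure D3:**
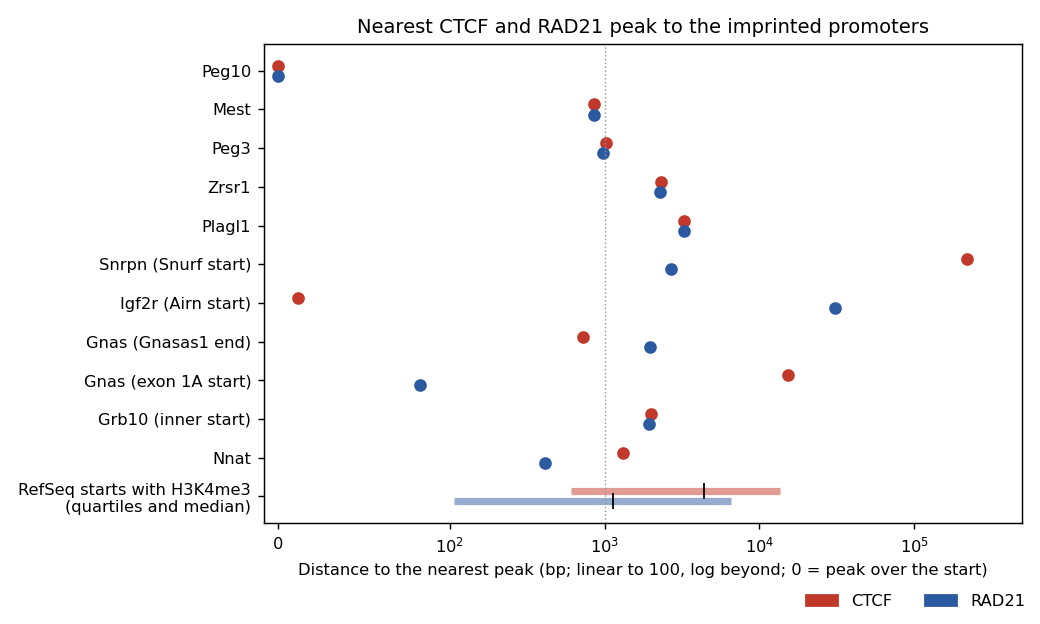
Distance in bp from each imprinted promoter to the nearest CTCF (red) and RAD21 (blue) peak, above the quartiles and medians over 14222 RefSeq starts with H3K4me3; the axis is linear to 100 bp and logarithmic beyond, and the dotted line marks 1 kb. The Snurf start is 219250 bp from CTCF, and the Airn start is 30879 bp from RAD21.

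Across the whole windows CTCF and RAD21 were shared about as often as elsewhere. CTCF peaks overlapped RAD21 in 32 of 36 cases, or 88.9% (Wilson 95% interval 74.7 to 95.6%, counting error only), against 81.9% of all CTCF peaks. RAD21 peaks overlapped CTCF in 32 of 56 cases, or 57.1% (95% interval 44.1 to 69.2%), against 55.9% of all RAD21 peaks. The 32 RAD21 peaks with CTCF had a median length of 239 bp and the 24 without it 83 bp. Over the whole list the medians were 183 and 95 bp. Of the 24, 10 lay within 2 bp of the minimum of 71 bp, as did 1 of the 32. In the whole list, with or without CTCF, 12985 of 75897 RAD21 peaks were that short. All 7 CTCF peaks of the Zrsr1 window, all 4 of Grb10 and all 3 of Peg3 and of Snrpn overlapped RAD21.

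Of the 26 H3K4me3 peaks, 5 overlapped CTCF (19.2%, Wilson 95% interval 8.51 to 37.9%), against 17.1% of all H3K4me3 peaks, and 5 overlapped RAD21 (19.2%), against 31.5%. The 3 that overlapped both, against 13% of all, were the shorter peak of Peg3, the one between Peg10 and Sgce, and that of Commd1. RAD21 without CTCF lay inside H3K4me3 at Gnas exon 1A and overlapped the edge of an H3K4me3 peak at Zim1, a zinc finger gene next to Peg3.

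Peak density also varied from locus to locus. The Zrsr1 window held 14 RAD21 and 10.9 CTCF peaks per 100 kb and the Gnas window 8.99 and 6.54, all above the upper quartile of the same window over 21631 protein-coding genes (7.28 for RAD21 and 6.29 for CTCF). The Nnat window was above it for RAD21 alone, with 9.61 RAD21 peaks per 100 kb. The Snrpn window, the longest because of the far upstream starts, held 1.14 RAD21 and 0.569 CTCF peaks per 100 kb, below the lower quartiles of 2.56 and 1.39. Igf2r was also below the lower quartile for RAD21, with 2.04, and Peg10 for CTCF, with 1.37. Medians over the 10 windows were 2.38 H3K4me3, 2.8 CTCF and 4.36 RAD21 peaks per 100 kb, against 1.67, 3.5 and 4.85 over all protein-coding genes.

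**Figure D4:**
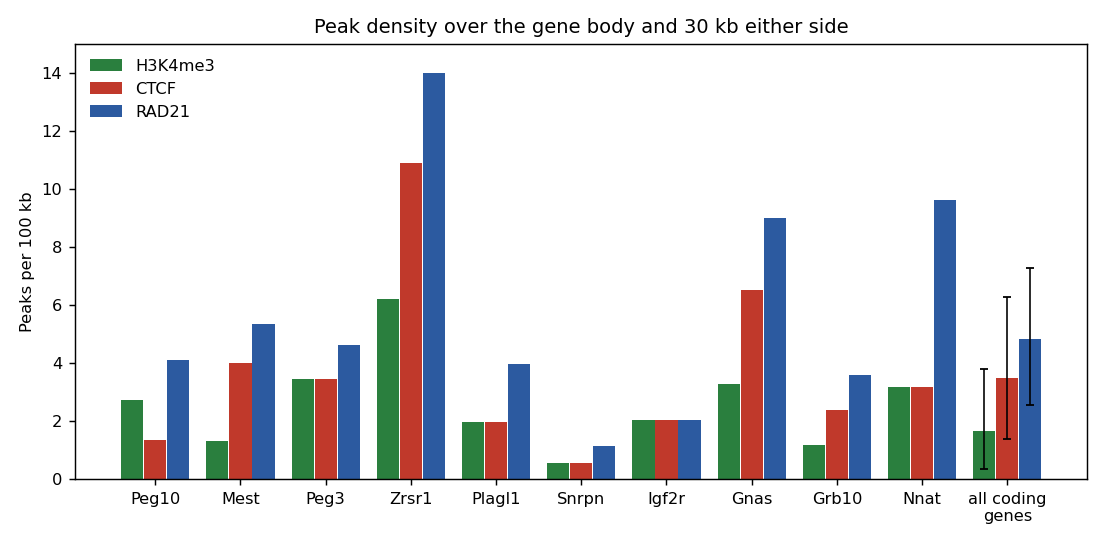
Peaks per 100 kb of H3K4me3 (green), CTCF (red) and RAD21 (blue) over the gene body and 30 kb either side of each locus, with the median over 21631 protein-coding genes at the right and its quartiles as error bars. The Zrsr1 bars are the tallest for each antibody, and the Snrpn bars are the shortest.

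The promoter windows were compared by sequence as well. Of the 8 control promoters 7 have an entry in the RefSeq promoter table, and Peg10 has none. TGCCGC, searched on both strands, was present at 4 of the 7 (Mest, Snurf, Plagl1 and Nnat), against 11.7% of 32585 promoters of the same length. Starts that are not control promoters had it too. These were the outer start of Grb10, the Commd1 start at 22982284, and Hymai, whose window overlaps that of Plagl1. The remaining starts described here had no match, among them the Gnas exon 1A start and the inner start of Grb10. The YY1 motif GCCATNTT was at 0 of the 7 control promoters, against 6.07% of all promoters, and the CTCF core also at 0, against 8.67%. At shares this low, 0 of 7 shows no lack of either motif. None of the 7 windows held a whole CTCF peak. The windows held between 3 CpG dinucleotides (Airn) and 26 (Plagl1), with a median of 13 against 7 over all promoters. TGCCGC itself holds a CpG, and its share over all promoters was not matched for CpG content. Matches of letters are a description of these windows, and sequence outside them was not analysed here.

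Other imprinted genes, on a list that includes neighbours of these loci and genes elsewhere, were read by the same rule. Of 22 listed genes 19 have a start in the table, and H3K4me3 was within 1 kb of 15, RAD21 of 8, CTCF of 4 and all 3 of 2, against 59.6%, 34.4%, 21.6% and 14.7% of protein-coding genes. The 2 with all 3 were Ube3a, which encodes a ubiquitin ligase expressed from the maternal copy in neurons, and Ppp1r9a, which encodes neurabin. Nap1l5, an imprinted retrogene inside a host gene as Zrsr1 is, had H3K4me3 of 540 bp over the start and RAD21 11 bp away, and its nearest CTCF peak was 113372 bp away. Slc38a4, an amino acid transporter gene, had H3K4me3 of 1314 bp 34 bp from a start and CTCF over a start, with the nearest RAD21 at 1324 bp. H3K4me3 was missing within 1 kb at Slc22a2, Snhg14, Asb4 and Ddc.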

How the data were processed

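ChIP-exo libraries were made from Bruce-4 mouse embryonic stem cells, 10000000 per replicate, fixed with 1% formaldehyde for 10 min, per the labels' protocols. Bowtie2 2.4.5, Picard 2.27.4, bedtools 2.30.0, MACS2 and mm10 are named in the submitters' processing notes, with no role or settings, and use of a control library is not stated. The authors deposited each list as chromosome, start and end, so the measured quantity is position and length. The CTCF list is called a union, per the labels' file name, and stands under the second CTCF library, so its replicates were not compared. A minimum peak length makes short calls uncertain, and a missing peak shows only that none was called.

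Peaks on the 19 autosomes and X were kept, with coordinates counted from 1, and an overlap was at least 1 bp. Starts came from the RefSeq promoter table (GRCm38.p6), and those of Peg10 and Gnasas1 from gene ends. Python 3.11.15, numpy 2.4.6, pandas 2.3.3, scipy 1.17.1 and matplotlib 3.10.9 were used. Counts in the 10 windows were checked against bedtools 2.31.1 and matched for each antibody. On simulated starts the distance code recovered 200 of 200 planted peaks within 1 kb with 0 false calls. The other simulated peaks lay far from any start, so peaks just beyond 1 kb were not tried. All 10 members and the genes at their control promoters were named; Copg2, also on that list, was not used. Members, lists, motifs, the choice of the Mest start and the inner sites were chosen with earlier results of these data known.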

Additional observations from a re-analysis of the deposited data

How the results depend on the processing

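The count of control promoters with all 3 marks depended on the distance allowed. It was 2 of 8 within 1 kb, Peg10 and Mest, against 10.3% of all starts. Within 500 bp it was 1, Peg10, against 7.5%, and within 2.5 kb it was 4, against 15.6%. When each list was cut to peaks longer than its median it was 1, Mest, so neither promoter held in every setting. With peaks resized to 200 bp it was 3, and with CTCF and RAD21 required on the same H3K4me3 peak it was 2, Peg3 taking the place of Mest. Within 2.5 kb CTCF was at 6 control promoters, and within 500 bp RAD21 was at 2. No share of all starts was computed for these counts or for the cut, resized and same-peak settings. They show only how the counts move with the setting. Without the shortest peaks the median distance to CTCF was 1809 bp. A flank of 100 kb gave 43 H3K4me3, 56 CTCF and 99 RAD21 peaks, and the longer peaks alone gave 15, 18 and 33. Other imprinted genes with all 3 numbered 4 of 19 within 2.5 kb, and no share of protein-coding genes was computed at that distance. Motifs under whole H3K4me3 peaks were not run, for want of a genome sequence. No paired analysis was possible because each antibody had 1 peak list. Depth is unknown, so absence of a peak cannot be told from a weak signal.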

Other observations

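Genes whose products keep imprints in the early embryo were also read. Of 8 listed, 7 have a start in the promoter table, and all 7 lay under an H3K4me3 peak, against 59.6% of protein-coding genes with H3K4me3 within 1 kb. Trim28, the corepressor that ZFP57 recruits, had a peak of 1814 bp, Uhrf1, which brings the maintenance methyltransferase to DNA, 1394 bp, and Zfp57 itself 1178 bp. Dnmt3l, a cofactor of methylation in germ cells, had the shortest, 398 bp. RAD21 was within 1 kb of 5 of the 7, against 34.4%, and CTCF of 2, Trim28 and Dnmt1, against 21.6%.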
